A study of Mus musculus with 6 samples.

Results

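The E2F and DP transcription factors were followed in osteoblasts that lack or express pRb, the retinoblastoma protein. The family was taken as 10 genes, E2f1 to E2f8 and the partner genes Tfdp1 and Tfdp2, and every probe set annotated to 1 of these symbols alone was included. This gave 21 of the 45037 probe sets on the array that were not controls, and all 21 were above the signal floor of 32 on at least 1 array and were tested. RNA came from MC3T3 cells, which are osteoblasts from the calvaria, the roof of the skull, of mice at embryonic day 18.5, made immortal by passage under the 3T3 protocol. The mice came from crosses of the flox19-RB1 allele, kept on a C57BL/6 background, with Col1a1-Cre transgenes (2.3 and 3.6), whose collagen promoter drives the recombinase in cells of the osteoblast lineage. By the study's methods the cells on the arrays were Rb-/- and Rb+/+, and whether the Rb+/+ cells carried a Cre transgene is not stated. The pRb-deficient group (labeled Rb Knockout) and the pRb-expressing group (labeled Wild type, derived from control littermates) held 3 cultures each, with 1 array per culture, and culture numbers are the replicate numbers of the labels. The labels call the cultures biological replicates but do not say whether they came from separate animals or separate immortalizations. The p-values therefore measure the spread between these cultures, and the line of origin and the pRb status of the cells cannot be told apart.

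E2F proteins bind DNA as heterodimers with a DP protein at promoters of genes for cell cycle entry, DNA synthesis and mitosis. pRb binds the activators E2F1, E2F2 and E2F3 and holds their activity back until cyclin-dependent kinases phosphorylate it, whereas its relatives p107 and p130 work mainly with the repressors E2F4 and E2F5. E2F6 represses without pocket proteins, in complexes with Polycomb group proteins, and the atypical members E2F7 and E2F8 bind DNA without a DP partner and repress E2F target genes. In the osteoblast lineage pRb is also known as a partner of the bone transcription factor Runx2. Arrays of this kind measure mRNA, so the activity of an E2F protein, which pRb controls by binding, was not measured.

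Several E2F genes are themselves E2F targets, so the sequence around their annotated starts was searched for the E2F consensus in its fully specified forms, TTTCCCGC, TTTCGCGC, TTTGCCGC and TTTGGCGC, on both strands. The search allowed words to overlap, and no other motif was searched. The windows, from RefSeq on the GRCm38.p6 build, ran from 250 bases before to 50 bases after an annotated start. Windows were at hand for 8 of the 10 members (E2f4 and E2f5 had none), and 4 of the 8, E2f2, E2f3, E2f7 and Tfdp1, held a word. Over all genes with a window the share was 2.6%, which was 704 of 27025 genes. An annotated start can lie inside a gene: the windows of E2f1, E2f8 and Tfdp2 lay wholly within the annotated gene, so the promoters at the 5′ ends of these genes were not searched. Of the 5 members with a window at the 5′ end of the gene, the same 4 held a word and E2f6 did not, against 2.28% of 23726 genes with such a window. The matched words are shown in capitals within up to 16 bases on either side, 5′ to 3′ on the gene's strand, because the choice of members did not use them.
E2f2, chr4:136172297-136172323, plus strand: atttggcggcatatagTTTGGCGCtaa
E2f3, chr13:29986051-29986090, minus strand: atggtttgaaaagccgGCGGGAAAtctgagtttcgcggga
E2f7, chr10:110745225-110745264, plus strand: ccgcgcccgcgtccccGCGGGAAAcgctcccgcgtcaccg
Tfdp1, chr8:13338692-13338731, plus strand: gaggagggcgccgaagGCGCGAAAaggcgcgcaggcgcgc
E2f2 and E2f3 have 2 windows each, and the window inside the gene held no word. In the other, the E2f2 word lay 40 bases after the start and the E2f3 word 11 bases before it. In E2f7 the word lay 198 bases before the start, and the E2f7, E2f3 and Tfdp1 words read on the opposite strand (GCGGGAAA is the reverse complement of TTTCCCGC, GCGCGAAA that of TTTCGCGC). Tfdp1 has 2 overlapping windows with different starts, so its word lay 43 or 96 bases before the start. A match of these letters is a description, not a measured binding site, and the 4 genes did not share a direction. Of their brightest probe sets, E2f2 was lower and Tfdp1 higher in pRb-deficient cultures, and E2f3 and E2f7 did not pass the test.

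Expression of the family was altered in part and in no single direction. At an adjusted p under 0.05 in limma, 4 of the 21 probe sets were higher and 1 was lower in pRb-deficient cultures, and 16 did not pass. That is 23.8% of the family's probe sets, against 35.0% of all 38427 probe sets tested (16.2% higher and 18.8% lower). With the brightest probe set per gene, 3 of 10 genes were higher (E2f4, Tfdp1 and Tfdp2), 1 was lower (E2f2) and 6 did not pass, against 41.9% of all 16308 genes tested (18.5% higher and 23.4% lower). The family's share is therefore near the background or under it. Only 3 probe sets passed with chromosome medians removed, and 2 to 4 with 1 array left out. The signals of the groups did not overlap for 9 of 21 probe sets, against 48.0% of all probe sets, and for 5 of 10 genes, against 53.8% of all genes. The median log2 fold change, always given as pRb-deficient over pRb-expressing, was 0.06 over the 10 genes and −0.09 over all genes tested. The median size of the change without its sign was 0.35 over the 10 genes and 0.39 over all genes.

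**Figure D1:**
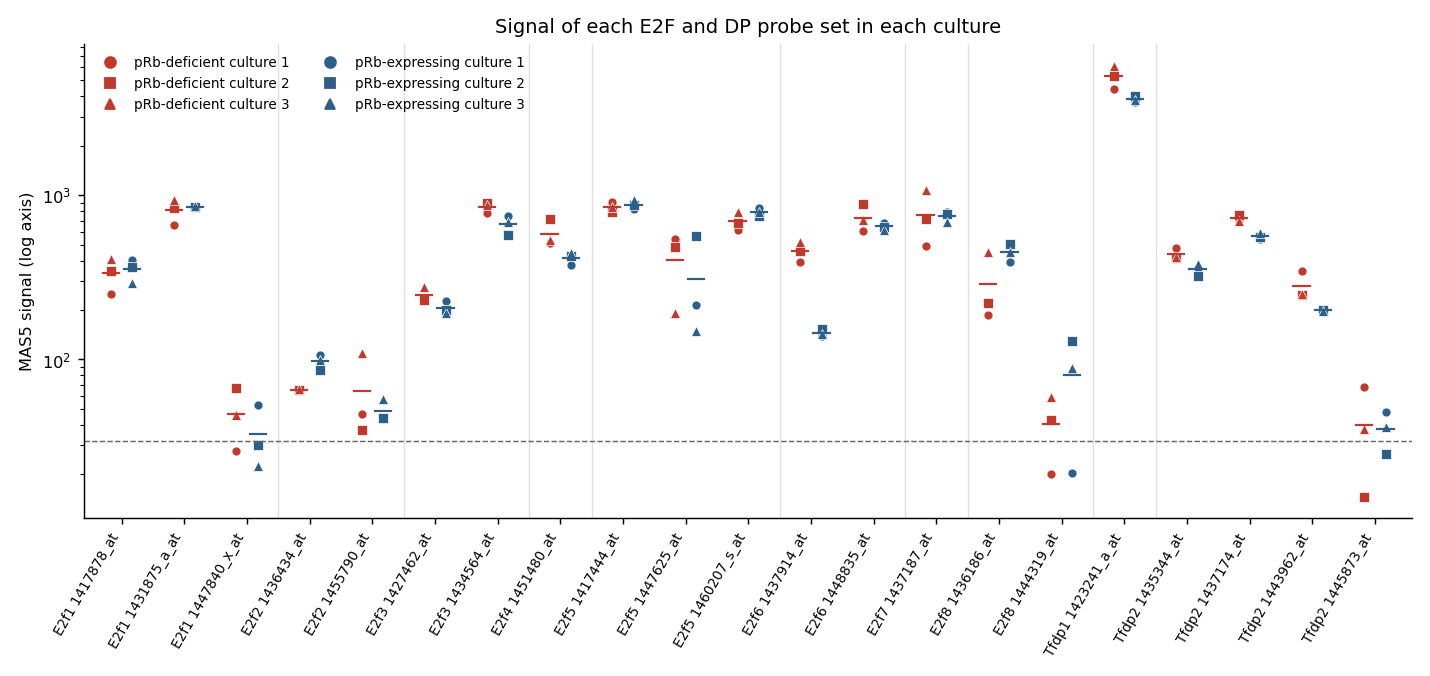
MAS5 signals (log axis) of the 21 E2F and DP probe sets in the 3 pRb-deficient cultures (red, left) and the 3 pRb-expressing cultures (blue, right), with a line at each group's mean and a dashed line at the floor of 32. The groups lie far apart for E2f6 1437914_at, and the pRb-deficient cultures are spread more widely than the pRb-expressing ones for E2f1 1431875_a_at, E2f7 and E2f8 1436186_at.

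The activator E2f1, the E2F first identified through its binding to pRb, did not pass the test in any of its 3 probe sets. Its brightest, 1431875_a_at, gave signals of 655.8, 839.4 and 938.6 in pRb-deficient cultures, against 845.1, 845.6 and 854.7 in pRb-expressing cultures. The pRb-deficient values lay on both sides of the pRb-expressing ones, which were almost identical. The log2 fold change was −0.08 (standard error, SE, 0.13, 95% confidence interval −0.40 to 0.24, adjusted p = 0.691 in limma). The second probe set, 1417878_at, had 251.4, 347.9 and 407.1 in pRb-deficient cultures, against 400.9, 365.5 and 293.0 in pRb-expressing cultures, again with full overlap (log2 fold change −0.09). The third, 1447840_x_at, was dim, with 3 of 6 arrays at or below the floor (log2 fold change 0.28). E2f1 lies on chromosome 2, where the median log2 fold change of 763 genes was −0.33. With each chromosome's median removed, the change of the brightest E2f1 probe set was 0.25 and still did not pass (adjusted p = 0.205 in limma).

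E2f2, a second activator, was the only member with a lower signal that passed the test. Its brightest probe set, 1436434_at, gave 65.1, 65.6 and 65.9 in pRb-deficient cultures, against 106.5, 86.2 and 99.7 in pRb-expressing cultures. The groups did not overlap, but all 6 values were under the median signal of the arrays, which was 108.0 to 119.9. The log2 fold change was −0.57 (SE 0.17, adjusted p = 0.0429 in limma). Over 15 alternatives the call was kept under 4. It was lost with any 1 array left out other than pRb-expressing replicate 2 (log2 fold change −0.50 to −0.57, adjusted p = 0.0585 to 0.0862), and with a floor of 100, which replaces all but 1 of the 6 values (−0.03, adjusted p = 0.665). With both E2f2 probe sets averaged the change was −0.15 and did not pass (adjusted p = 0.644). The other E2f2 probe set, 1455790_at, had 46.8, 37.1 and 109.2 in pRb-deficient cultures, against 43.2, 44.1 and 57.5 in pRb-expressing cultures, with overlap and a log2 fold change of 0.26.

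E2f3, the third activator, was brighter in all pRb-deficient cultures than in any pRb-expressing culture without passing the test. Probe set 1434564_at gave 778.5, 889.9 and 870.0 in pRb-deficient cultures, against 744.6, 571.5 and 690.1 in pRb-expressing cultures (log2 fold change 0.35, SE 0.12, adjusted p = 0.0626 in limma). Probe set 1427462_at gave 234.1, 230.5 and 277.9 in pRb-deficient cultures, against 225.4, 198.9 and 191.8 in pRb-expressing cultures (log2 fold change 0.27, adjusted p = 0.227). Neither pair of groups overlapped. The median change of the 368 genes on chromosome 13, where E2f3 lies, was 0.33, and with that median removed the values were 0.02 and −0.06. E2f3 is known to give a longer and a shorter protein from separate starts, and which of the transcripts these probe sets detect was not examined.

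Among the repressors, E2f4 was higher in pRb-deficient cultures and E2f5 did not pass. E2f4, the E2F that carries p107 and p130 to promoters in resting cells, has 1 probe set, 1451480_at. It gave 508.3, 711.8 and 529.8 in pRb-deficient cultures, against 373.9, 425.5 and 442.3 in pRb-expressing cultures. The lowest pRb-deficient value was above the highest pRb-expressing one, and the mean signal was 583 ± 112 in pRb-deficient and 414 ± 35.6 in pRb-expressing cultures (SD, n = 3 each). The log2 fold change was 0.48 (SE 0.15, adjusted p = 0.0470 in limma). This is close to the threshold, and the adjusted p was 0.0540 to 0.165 when any 1 of the 6 arrays was left out. The changes then were 0.33 (without pRb-deficient replicate 2) to 0.57 (without pRb-deficient replicate 1), all positive.

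E2f5, the partner mainly of p130, is measured by 3 probe sets. The brightest, 1417444_at, gave 907.7, 791.7 and 852.1 in pRb-deficient cultures, against 820.8, 871.3 and 934.7 in pRb-expressing cultures, which overlapped. Its log2 fold change was −0.04, with a 95% confidence interval of −0.25 to 0.17. Probe set 1460207_s_at had a log2 fold change of −0.20 (adjusted p = 0.227 in limma). Probe set 1447625_at varied up to 3.79-fold within a group and gave 0.49, with an interval of −0.87 to 1.85 that holds changes of either sign.

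The clearest difference in the family was in E2f6, and it was seen with 1 of its 2 probe sets. Probe set 1437914_at gave 392.5, 454.4 and 519.9 in pRb-deficient cultures, against 138.7, 152.6 and 143.3 in pRb-expressing cultures. The lowest pRb-deficient value was far above the highest pRb-expressing one. The signal was 3.13-fold higher on geometric means (95% confidence interval 2.45 to 3.99), a log2 fold change of 1.64 (SE 0.15, adjusted p = 0.000227 in limma). Under all 16 alternative settings the change was 1.38 to 1.75 and passed the test, with adjusted p-values up to 0.00428. The brighter probe set, 1448835_at, gave 607.2, 877.5 and 705.7 in pRb-deficient cultures, against 676.9, 641.5 and 615.8 in pRb-expressing cultures. These overlapped, and the log2 fold change was 0.16 (SE 0.14, 95% confidence interval −0.17 to 0.50, adjusted p = 0.429). The 2 intervals do not overlap, so the gene as a whole has no single change on this array. Which E2f6 transcripts each probe set detects was not examined, and the gene is on chromosome 12, whose median was 0.27. With the log2 signals of both probe sets averaged, a setting under which 3 of the 10 genes passed, E2f6 was higher by 0.90 on the log2 scale (adjusted p = 0.000862).

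Neither atypical E2F passed the test, and both varied widely among pRb-deficient cultures. E2f7, measured by 1437187_at alone, gave 489.6, 714.4 and 1069.2 in pRb-deficient cultures, against 792.7, 766.1 and 685.2 in pRb-expressing cultures. The highest and lowest pRb-deficient values differed 2.18-fold and enclosed all the pRb-expressing ones, which differed 1.16-fold. The log2 fold change was −0.05, with a 95% confidence interval of −0.67 to 0.57, wide enough to hold a change as large as that of E2f4 in either direction.
E2f8 had the lowest fold change of any member. Probe set 1436186_at gave 185.7, 222.0 and 450.7 in pRb-deficient cultures, against 393.6, 507.6 and 448.0 in pRb-expressing cultures, so that only pRb-deficient culture 3 lay within the pRb-expressing range. The log2 fold change was −0.76 (SE 0.32, 95% confidence interval −1.52 to 0.01, adjusted p = 0.120 in limma). Without pRb-deficient replicate 3 it was −1.14 and passed (adjusted p = 0.00560), and without pRb-deficient replicate 1 it was −0.50 (adjusted p = 0.333). E2f8 lies on chromosome 7, whose median was −0.33, and with chromosome medians removed its change was −0.43. The other E2f8 probe set, 1444319_at, was dim, with 20.1, 42.8 and 58.9 in pRb-deficient cultures, against 20.3, 130.3 and 89.2 in pRb-expressing cultures. Its change of −0.73 did not pass with all arrays, and it was −1.32 without pRb-expressing replicate 1 (adjusted p = 0.0463) and −0.31 without pRb-expressing replicate 2 (adjusted p = 0.720). With a floor of 100 it was −0.13.

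Both DP genes were higher in pRb-deficient cultures by their brightest probe sets. Tfdp1 encodes DP1, the usual partner of E2F1 to E2F6, and its probe set 1423241_a_at gave 4448.6, 5312.1 and 6144.9 in pRb-deficient cultures, against 3691.1, 4034.5 and 3784.6 in pRb-expressing cultures. The groups did not overlap, and the log2 fold change was 0.46 (SE 0.12, adjusted p = 0.0235 in limma). The call was kept without pRb-deficient replicate 1 (0.58) or 3 (0.34) and lost without pRb-deficient replicate 2 (0.45, adjusted p = 0.0976) or any pRb-expressing array (0.43 to 0.49, adjusted p = 0.0810 to 0.108). The median of chromosome 8, which carries both Tfdp1 and E2f4, was 0.06.

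Tfdp2 encodes DP2, and its brightest probe set, 1437174_at, gave 710.2, 760.4 and 692.4 in pRb-deficient cultures, against 543.6, 553.3 and 585.2 in pRb-expressing cultures. The groups were well apart for their spread, with a log2 fold change of 0.36 (SE 0.08, adjusted p = 0.0130 in limma) that passed with any 1 array left out. Probe set 1443962_at gave 347.9, 246.6 and 250.1 in pRb-deficient cultures, against 198.3, 200.7 and 197.1 in pRb-expressing cultures, and 1435344_at gave 477.5, 412.2 and 419.2 in pRb-deficient cultures, against 358.7, 321.0 and 383.4 in pRb-expressing cultures. Neither overlapped, and neither passed (log2 fold change 0.48 with adjusted p = 0.0712, and 0.30 with adjusted p = 0.0951). The fourth probe set, 1445873_at, was near the floor and overlapped (log2 fold change 0.16). Tfdp2 lies on chromosome 9, where the median of 561 genes was 0.28, and with chromosome medians removed the brightest probe set no longer passed (0.08, adjusted p = 0.493). With its probe sets averaged Tfdp2 did not pass either (0.33, adjusted p = 0.129).

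**Figure D2:**
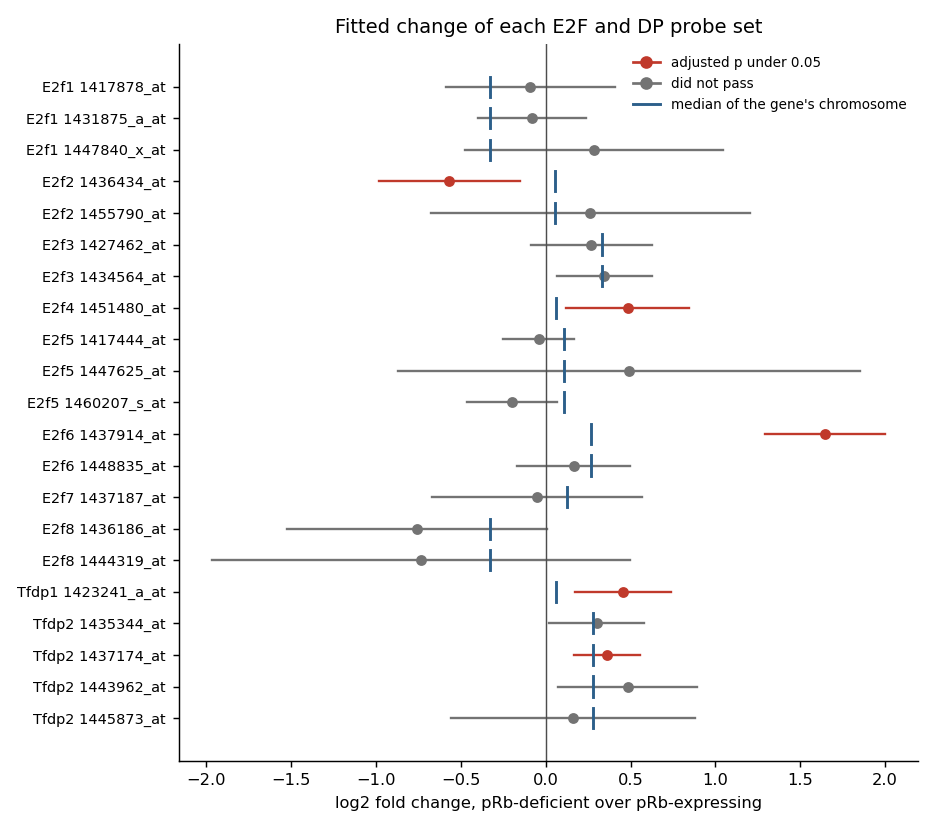
Log2 fold change, pRb-deficient over pRb-expressing, of each of the 21 probe sets (points) with its 95% confidence interval in limma (lines), red for an adjusted p under 0.05 and grey for the rest. A blue bar marks the median log2 fold change of genes on the same chromosome, which E2f3 1434564_at (0.35 against 0.33) and Tfdp2 1437174_at (0.36 against 0.28) lie close to and E2f6 1437914_at (1.64 against 0.27) does not.

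All 3 pocket protein genes, for the regulators that E2F proteins bind, were lower in pRb-deficient cultures, where 23.4% of all genes were, and Rb1 is the gene targeted in these cells. Rb1, which encodes pRb, gave 143.1, 127.1 and 123.5 in pRb-deficient cultures, against 1123.7, 1118.6 and 1105.9 in pRb-expressing cultures (log2 fold change −3.09). Whether its probes fall in the deleted part of the gene was not examined, so this is no check of the deletion. Rbl1, which encodes p107 and is an E2F target, gave 729.0, 886.5 and 858.0 in pRb-deficient cultures, against 1182.3, 1089.7 and 1094.5 in pRb-expressing cultures (−0.45, adjusted p = 0.0102 in limma), and lies on chromosome 2 with its median of −0.33. Rbl2, which encodes p130, gave 565.6, 598.1 and 557.4 in pRb-deficient cultures, against 773.4, 675.7 and 720.4 in pRb-expressing cultures (−0.33, adjusted p = 0.0230). None of the 3 genes overlapped between groups, which was also so for 53.8% of all genes tested.

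Genes for the complexes in which E2Fs work on DNA were altered in both directions, beside 18.5% of all genes higher and 23.4% lower. Of 9 genes of the DREAM complex and its MuvB core, which join p107 or p130 and E2F4 to repress cell cycle genes, 2 were higher, 3 lower and 4 did not pass, and Rbl1 and Rbl2 are among those lower. Rbbp4, a histone-binding subunit, was higher (log2 fold change 0.56, with a chromosome 4 median of 0.06). Dyrk1a, the kinase that starts assembly of the complex, was lower (−0.46), close to the chromosome 16 median of −0.43. Of 11 genes for partners of E2F6, 2 were higher and 2 lower, and 7 did not pass. Yaf2, which encodes a Polycomb-associated protein, gave 2444.5, 2722.3 and 2906.5 in pRb-deficient cultures, against 1207.8, 1222.0 and 1317.6 in pRb-expressing cultures, 2.15-fold higher on geometric means (adjusted p = 0.000107). L3mbtl2, for a histone-binding protein of these complexes, was also higher (log2 fold change 0.71), and the genes of the ubiquitin ligases Ring1 (−1.07) and Rnf2 (−0.30) were lower. The medians of their chromosomes were 0.35 for L3mbtl2, −0.26 for Ring1 and −0.50 for Rnf2, which fell less than its chromosome's median. In mouse cells E2F6 keeps certain germline genes silent, and of 6 such genes measured 4 were tested and none passed in limma (nor at an unadjusted p under 0.05). The 4, Tuba3b, Taf7l, Majin and Stag3, had log2 fold changes of −0.59 to 0.39 and signals of 13.9 to 123.4, so these data held little signal to compare.

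Between the groups, genes that E2Fs are known to activate had no shared direction, beside 18.5% of all genes higher and 23.4% lower. By the study's account both lines were harvested while proliferating, which it says lessens the known effects of pRb on the cell cycle. Cells at rest were not on these arrays. Over all 9 lists, 67 of 100 tested genes rose through pRb-deficient cultures 1, 2 and 3, against 3802 of all 16308 genes. Those lists also hold the pocket protein, complex partner, germline and G2/M genes, and the activated targets alone were not counted. Of 12 G1/S control genes, 4 were higher, 3 lower and 5 did not pass, with a median log2 fold change of 0.06. The checkpoint kinase gene Chek1 (0.52) and the phosphatase gene Cdc25a (0.51) were higher, and Ccne1, which encodes cyclin E1, was lower (−0.94). The medians of their chromosomes were 0.28 for Chek1 and Cdc25a and −0.33 for Ccne1. Of 30 DNA replication genes, 7 were higher, 5 lower and 18 did not pass, with a median of −0.17. Dut, which keeps uracil out of DNA, had the lowest adjusted p of the list, with 3810.0, 3678.5 and 3684.1 in pRb-deficient cultures, against 1395.3, 1409.2 and 1401.4 in pRb-expressing cultures (log2 fold change 1.41, adjusted p = 9.38e-06 in limma). Pole (1.16) and Prim1 (0.91), for a replicative polymerase and the primase, and the licensing factor gene Cdt1 (0.63) were also higher. Of the 5 that were lower, Cdc6 (−1.30), which loads the replicative helicase, and Tk1 (−1.12), a thymidine kinase, had the largest changes and were named after their values were seen. Chromosome medians were −0.33 for Dut, 0.26 for Pole, 0.13 for Prim1, 0.06 for Cdt1 and −0.52 for Cdc6 and Tk1.

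Of 11 tested genes of repair and chromatin, 2 were higher, 5 lower and 4 did not pass, with a median of −0.40. The maintenance methylase gene Dnmt1 was higher (0.54), whereas Uhrf1 (−1.28), whose product guides that enzyme to DNA, Ezh2 (−0.70), the Polycomb methylase, and Chaf1b (−0.70), a histone chaperone subunit, were lower. The medians of their chromosomes were 0.28 for Dnmt1, −0.26 for Uhrf1, −0.58 for Ezh2 and −0.43 for Chaf1b. Of 5 cell death genes, none was higher in limma (nor at an unadjusted p under 0.05), 3 were lower and 2 did not pass. Those lower were Bid (−1.15), Bbc3 (−0.82) and Trp73 (−1.44), all promoters of apoptosis. Bcl2l11, which encodes the BH3 protein Bim, was at 0.03 and did not pass. Of 19 G2/M genes of the kind that DREAM and B-MYB regulate, 2 were higher (Kif23, 0.69, and Ccnb2, 0.56), 2 lower (Cenpf, −1.07, and Aurkb, −0.84) and 15 did not pass. The medians of their chromosomes were 0.28 for Kif23 and Ccnb2, −0.50 for Cenpf and −0.52 for Aurkb. For lists with 5 or more genes tested, the share altered was 55.6% for DREAM, 36.4% for E2F6 partner, 58.3% for G1/S and 40% for replication genes. It was 63.6% for repair and chromatin, 60% for cell death and 21.1% for G2/M genes, against 41.9% of all genes. Over all 9 lists, 19 of 100 genes tested were higher and 23 lower, against 18.5% and 23.4% of all genes. With chromosome medians removed 13 were higher and 11 lower, and without pRb-expressing replicate 1 the counts were 10 and 9. They were 15 higher and 37 lower without pRb-deficient replicate 3, and 22 and 21 without pRb-deficient replicate 1.

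**Figure D3:**
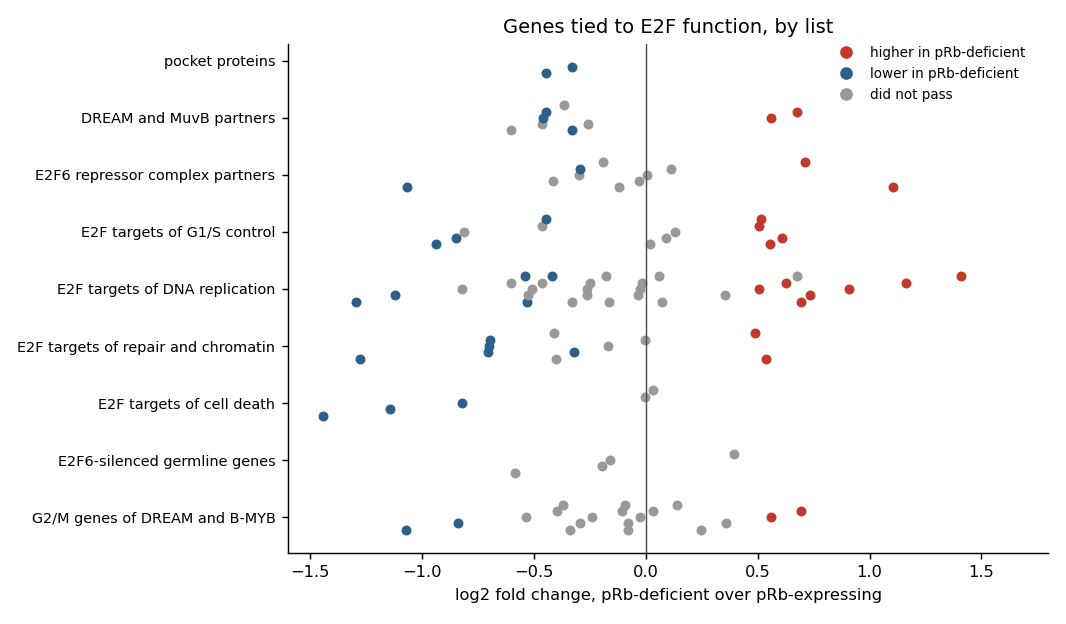
Log2 fold change, pRb-deficient over pRb-expressing, of each tested gene (point) in 9 lists of genes tied to E2F function, by brightest probe set, with Rb1 (−3.09) left off the axis and small vertical steps only to separate points. Red and blue points, higher and lower at an adjusted p under 0.05, lie on both sides of 0 in the lists of DREAM, E2F6 partner, G1/S, replication, repair and chromatin, and G2/M genes.

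The E2F words searched in the members' windows were also counted in these lists. They were found in 4 of 9 G1/S genes with a window (44.4%), 10 of 26 replication genes (38.5%) and 8 of 13 repair and chromatin genes (61.5%), in 0 of 5 cell death genes and in 0 of 16 G2/M genes. Of the up to 4 genes of lowest adjusted p per list, 27 had a window and 7 held a word. Of these 7, Cdc25a, Cdt1 and Dnmt1 were higher, and Rbl1, Dyrk1a, Ezh2 and Uhrf1 were lower. Cdc6 and Tk1, also named above, were not looked up by name. The words of 2 genes from each direction are printed as examples, with the word in capitals. These genes were picked by adjusted p and direction, and any tie between a word and a direction was not tested.
Cdc25a, chr9:109875496-109875535, plus strand, higher: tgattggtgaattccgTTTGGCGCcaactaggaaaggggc
Dnmt1, chr9:20952819-20952858, minus strand, higher: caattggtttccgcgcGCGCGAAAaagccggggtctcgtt
Rbl1, chr2:157204529-157204568, minus strand, lower: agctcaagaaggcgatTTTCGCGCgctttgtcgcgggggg
Uhrf1, chr17:56304112-56304151, plus strand, lower: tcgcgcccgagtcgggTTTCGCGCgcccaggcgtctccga
The Dnmt1 word printed is TTTCGCGC read on the other strand, the same word as in Rbl1, Uhrf1 and Tfdp1, and Cdc25a holds TTTGGCGC, the word of E2f2. Dnmt1 has a second word, TTTGGCGC, 34 bases after its start. Of 522 tested genes with a word, 20.7% were higher and 26.1% lower, with a median log2 fold change of −0.08. Of 12496 tested genes whose windows held none, 18.3% were higher and 24.1% lower, with a median of −0.10.

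For several members the pRb-deficient cultures differed from one another more than the pRb-expressing cultures did, as a description with no test. The range was the wider one in pRb-deficient cultures for 8 of the 10, by little for E2f5 (0.20 against 0.19) and Tfdp2 (0.14 against 0.11). The share over all genes was not counted, and their median SD of the log2 signal was also larger in pRb-deficient cultures (0.18 against 0.13). With each gene's log2 signal set against its mean over the 6 arrays, E2f7 was at −0.58, −0.04 and 0.54 in pRb-deficient cultures 1, 2 and 3, a range of 1.13, against a range of 0.21 in pRb-expressing cultures. E2f8 had a range of 1.28 in pRb-deficient and 0.37 in pRb-expressing cultures, E2f1 one of 0.52 in pRb-deficient and 0.02 in pRb-expressing cultures, and Tfdp1 one of 0.47 in pRb-deficient and 0.13 in pRb-expressing cultures. The range was 0.53 in pRb-deficient and 0.14 in pRb-expressing cultures for E2f6, and 0.49 in pRb-deficient and 0.24 in pRb-expressing cultures for E2f4. The means of the target lists were spread alike. The G2/M list had a range of 0.79 in pRb-deficient and 0.02 in pRb-expressing cultures, the G1/S list 0.74 in pRb-deficient and 0.10 in pRb-expressing cultures, and the replication list 0.47 in pRb-deficient and 0.04 in pRb-expressing cultures. Not every member followed, since E2f2 (0.02 in pRb-deficient and 0.31 in pRb-expressing cultures) and E2f3 (0.19 in pRb-deficient and 0.38 in pRb-expressing cultures) had the smaller range in pRb-deficient cultures.

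Culture 1 was the lowest of the pRb-deficient cultures for 8 of the 10 members and for 73 of the 100 list genes, against 35% of all genes tested. Culture 3 was the highest for 5 of the 10 members and for 75 of the list genes, against 36% of all genes. Of the 6 stress genes listed, Ddit3 and Atf3, singled out after their values were seen, were highest in culture 1 and lowest in culture 3 among the pRb-deficient cultures. Ddit3 gave 7892.2, 2513.5 and 1210.5 in pRb-deficient cultures, against 1138.1, 1183.9 and 1179.4 in pRb-expressing cultures, and Atf3 gave 1020.1, 463.3 and 131.6 in pRb-deficient cultures, against 122.1, 103.2 and 112.8 in pRb-expressing cultures. Jun, of the same list, was lowest in culture 1, with 4481.1, 6460.0 and 7104.5 in pRb-deficient cultures, against 998.2, 1072.1 and 1167.3 in pRb-expressing cultures, and Hspa1b was also lowest in culture 1. Over all genes the median SD of the log2 signal was 0.18 in pRb-deficient and 0.13 in pRb-expressing cultures. The part of stress or growth state in the E2F values was not tested, and fewer cells with a transcript and less of it per cell cannot be told apart in such bulk samples.

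**Figure D4:**
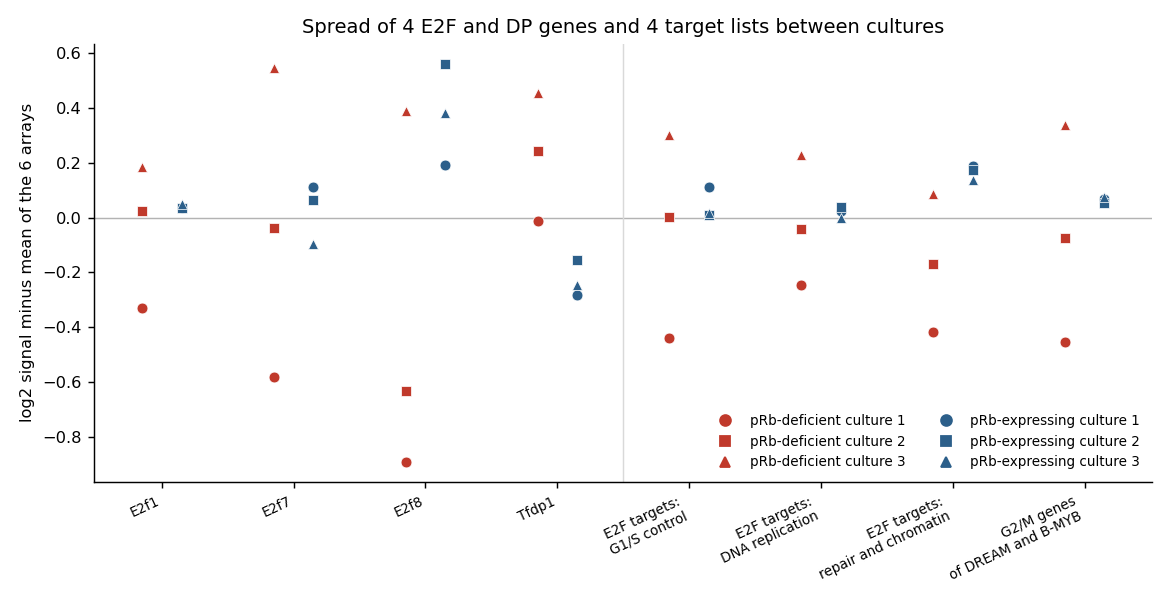
Log2 signal minus the mean of the 6 arrays for 4 members chosen after their values were seen (brightest probe sets) and for the means of 4 target lists, in the 3 pRb-deficient cultures (red, left) and the 3 pRb-expressing cultures (blue, right), with symbols for culture numbers. The pRb-deficient cultures spread over 0.47 to 1.28 and the pRb-expressing cultures over 0.02 to 0.37.

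Markers of cell type and stress differed between the groups as well, and the counts stand beside 18.5% of all genes higher and 23.4% lower. All 7 osteoblast markers tested were lower in pRb-deficient cultures, their summed signal being 22315 to 34694 in pRb-deficient and 54928 to 61253 in pRb-expressing cultures. The list held 10 markers, and Runx2, Bglap and Spp1 had no probe set assigned to their symbol alone in the annotation used. They were therefore not examined here, whether or not the array carries probes for them. Ibsp, which encodes bone sialoprotein, a defining marker of the labeled cell type, was at 0.5 to 9.2 in pRb-deficient cultures, below the floor, against 2007 to 2895 in pRb-expressing cultures. Of smooth muscle markers 2 of 4 tested, Cnn1 and Tagln, were higher, and the defining marker Myh11 was at or below the floor on all 6 arrays. The summed signal was 26717 to 31869 in pRb-deficient and 23071 to 25613 in pRb-expressing cultures. Acta2, the brightest of these markers, went the other way without passing (log2 fold change −0.24, adjusted p = 0.0810 in limma), and its groups did not overlap. Des did not pass either (1.21). Of mesothelial markers 2 of 5 were higher, with sums of 1197 to 1980 in pRb-deficient and 142 to 164 in pRb-expressing cultures, almost all of it in pRb-deficient cultures from Msln (1066 to 1860 in pRb-deficient and 15.3 to 24.2 in pRb-expressing cultures). Upk3b and Lrrn4 did not pass (log2 fold changes of −0.76 and −0.44), and the defining marker Wt1 was at 38.6 or less on all 6 arrays, near the floor. Of 6 stress genes 3 were higher and 1 lower, with sums of 13392 to 18047 in pRb-deficient and 6526 to 7335 in pRb-expressing cultures. Of chondrocyte markers 1 of 6 was higher and 2 were lower, of adipocyte markers 1 of 4 was lower, of endothelial markers none of 4 passed in limma (nor at an unadjusted p under 0.05), and of hematopoietic markers 1 of 5 was higher. The part of cell identity in the E2F and DP values was not tested.

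The called member with the largest change in its brightest probe set was E2f2, and the genes most like it over the 6 arrays were Ikbip, Ten1 and Mdm2, with Pearson correlations of 1.00, 0.998 and 0.997 among 10168 genes compared. With 6 arrays in 2 groups such values are common, and 670 genes reached 0.95.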

How the data were processed

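RNA from 3 pRb-deficient and 3 pRb-expressing cultures was hybridized by the authors to Affymetrix Mouse Genome arrays. MAS5 and Affymetrix Expression Console 1.1 are the tools in the submitters' processing notes. The deposited intensities are MAS5 signals on a linear scale, scaled by the authors to a trimmed mean of 500, which each array met. Detection calls were not used here, and the number of arrays limits the precision.

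Of 45101 probe sets, 64 controls and 6610 at or below 32 on all 6 arrays were left out, and 38427 were tested. Lower signals were set to 32, and the log2 values were modelled in R 4.3.3 by limma 3.58.1, using lmFit and then eBayes with its trend option, and group as the only term. P-values are two-sided and adjusted by Benjamini and Hochberg over all probe sets tested, with a threshold of 0.05. The rank statistic of the study's methods cannot give an exact p under 0.1 with 3 against 3 arrays. In the platform annotation 34945 probe sets had 1 symbol, 932 had several and 9160 had none. Of those with 1 symbol, 34741 matched a RefSeq gene ID, which was used for names and chromosomes. Each gene was represented by its probe set with the highest mean signal. Signals of different probe sets are not comparable as transcript levels. Members, lists and rules were chosen with earlier results of these data known. All members were named, with the pocket protein genes and up to 4 genes of lowest adjusted p per list. Chromosome medians used only genes whose mean signal was 200 or more. Over the autosomes they ran from −0.58 (chromosome 6) to 0.35 (chromosome 15). Chromosome Y, with 4 genes, was at −4.05, and the cause of these differences between the lines was not tested. Alternatives changed the floor, filter, scaling, variance model, replicate block, chromosome medians, probe sets per gene and each array in turn.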

Additional observations from a re-analysis of the deposited data

How the results depend on the processing

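The count of E2F and DP probe sets that passed, 5 with the settings used, was 3 with no filter on dim probe sets, 3 with no intensity trend, 3 with chromosome medians removed and 2 to 4 with 1 array left out. The count of genes, 4, was 2 with no filter, 2 with no intensity trend, 2 with chromosome medians removed and 1 to 3 with 1 array left out. The count of list genes, 42, was 26 with no filter, 24 with chromosome medians removed and 19 to 52 with 1 array left out (19 without pRb-expressing replicate 1, 52 without pRb-deficient replicate 3, of which 37 were lower). Replicate numbers were not used to pair cultures, since deviations of same-numbered arrays correlated at 0.02, −0.03 and 0.06. With the replicate number as a block, 4 probe sets, 3 genes and 38 list genes passed, and E2f2 1436434_at was lost (adjusted p = 0.102).

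Directions that changed all belonged to probe sets that had not passed. Tfdp2 1445873_at was −0.13 without a floor, −0.0062 with a pseudocount of 32, −0.12 with chromosome medians removed and −0.16 to 0.38 with 1 array left out. With median centring E2f5 1417444_at was 0.018 and E2f7 1437187_at 0.0088. With chromosome medians removed E2f1 1417878_at was 0.24, E2f1 1431875_a_at 0.25, E2f3 1427462_at −0.062 and E2f6 1448835_at −0.11. With 1 array left out the changes spanned −0.24 to 0.10 for E2f1 1417878_at, −0.19 to 0.065 for E2f1 1431875_a_at, −0.34 to 0.23 for E2f7, −0.090 to 0.0084 for E2f5 1417444_at and −0.20 to 0.58 for E2f2 1455790_at. E2f4 and Tfdp1 also lost their calls with no filter (adjusted p = 0.0952 and 0.0663) and with no intensity trend (0.0661 and 0.0525), and E2f4 with chromosome medians removed (0.0756). Calls were gained by Tfdp2 1443962_at under 4 settings, among them median centring (adjusted p = 0.0330), and by E2f3 1434564_at when dimmer probe sets (mean under 100) were left out (0.0436). The causes were not tested.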
